A study of Mus musculus with 24 samples.

Results

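The stable peaks were 447 regions of STAU2-bound RNA whose scaled read count kept nearly the same mean at each of 4 stages of embryonic mouse cortex. They were selected on the measured counts. Each library was divided by its own median over the gene rows and multiplied by 100, so that 100 is the count of the median peak of that library. A peak was kept where its lowest stage mean was at least 45, called the floor below, and its highest stage mean was at most 1.25 times its lowest. A gene row is a pairing of a peak with a named gene in which the peak was not called intergenic. The table had 14292 gene rows in 7967 genes, of which 8716 reached the floor, and the 447 stable peaks in 394 genes made up 3.13% of the gene rows and 5.13% of the rows at the floor. Because the counts chose them, the flatness of these peaks over the stages is a description and was not tested.

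The study immunoprecipitated RNA with an antibody to STAU2 from C57BL/6 brain cortex on embryonic days E11.5, E13.5, E15.5 and, last, E17.5, with 3 libraries a stage, and sequenced total RNA (the input) beside each. No further genotype, treatment or sex is given, and nothing says whether the 3 libraries of a stage came from separate litters, so that any p-value measures the spread between these libraries. The names of the 12 count columns give stage and replicate but not the kind of library, and as the table is one of peaks, the columns were taken for the immunoprecipitated RNA. The inputs were not analysed here, so that more RNA in the tissue and more RNA bound cannot be told apart. In whole cortex, fewer cells of a type and less RNA per cell cannot be told apart either.

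STAU2 is a double-stranded RNA-binding protein that carries messenger RNAs along microtubules in neurons and their progenitors. It contacts stems that the RNA forms with itself, many of them in 3' untranslated regions (UTRs). Over these days the cortex goes from a sheet of dividing neuroepithelial cells to a layered tissue in which neurons of the deep and then the upper layers have been born, and the RNA that can be bound changes with it.

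Short stems were predicted within the stable peaks. Below are hairpins of at most 30 bases predicted in the 200-base windows at the centre of 6 of them. They come from some, not all, of the stable peaks of highest count and from the genes of the Staufen proteins themselves. Capitals mark bases predicted to pair. The letters were read 5′ to 3′ on the RNA strand from GENCODE transcripts of mm10.
Nedd8 3' UTR, chr14:55662337-55662365, minus strand: GCCCAGaTGGCCcctgctGGCTATTGGGT
Hnrnpab 3' UTR, chr11:51601100-51601129, minus strand: TGCAGCCtGGaCCtgtGGaCCctGGTTGTA
Actr3 3' UTR, chr1:125393653-125393681, minus strand: TTGGGCACTGCTgagtgGGTAGTGCCTGA
Pcbp1 coding sequence, chr6:86525016-86525029, minus strand: GGCGCcaagGCGCC
Stau1 5' UTR, chr2:166996160-166996183, minus strand: GGCctGGCGGcgcCCGCCttcGCC
Stau2 coding sequence, chr1:16389932-16389958, minus strand: GGAGAGggaaatagcaaaaaaCTCTCC
The predicted energies were -17.5 kcal/mol for the Actr3 hairpin, -14.8 for Nedd8, -12.8 for Stau1, -11.4 for Hnrnpab, -10.6 for Pcbp1 and -9.4 for Stau2. Over all 439 stable peaks with a window, the median of the best such hairpin was -10 kcal/mol (quartiles -12.5 and -7.8), the same median as over the rows at the floor. Among further peaks of highest count, Akr1a1 (-14.2) and Atp5mpl (-11.9) had stronger hairpins than that median. Smarce1-ps1 (-9.9), Btf3-ps1 (-8.6) and Calm3 (-4) had weaker ones. The prediction is of naked RNA and does not show that these stems form or are bound.

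The named genes with the flattest stage means, with unnamed gene models left out of the ranking, included genes of chromatin, splicing and mitochondria. Dnttip1, a subunit of a histone deacetylase complex, had the smallest ratio of highest to lowest stage mean, 1.008 (exon, chromosome 2, 164754010 to 164754414, plus strand). Its scaled counts were 100, 96.6 and 117, then 67.5, 141 and 102, then 120, 72.6 and 120, then 104, 131 and 76.8 from E11.5 to E17.5. The stage means were 104 ± 10.8, 104 ± 36.8, 104 ± 27.5 and 104 ± 27.2 (SD, n = 3). The means thus lay within 1 unit of each other while single libraries of 1 stage differed by more than 70. Slc25a3, the mitochondrial phosphate carrier, had 430, 500 and 333, then 436, 365 and 480, then 333, 389 and 536, then 535, 378 and 387 from E11.5 to E17.5 (chromosome 10, 91119501 to 91119645, minus strand). All 4 stages overlapped, and the ratio of stage means was 1.03. The other 8 of the first 10 named genes had ratios of 1.03 to 1.06. They included Prpf3, a splicing factor of the U4/U6 particle (71.2 ± 32.2 at E11.5 and 70.7 ± 41.0 at E17.5), Fdx1, the mitochondrial ferredoxin (46.4 ± 24.9 and 46.7 ± 14.1), Nol8, a nucleolar protein (55.2 ± 22.8 and 53.4 ± 4.28), Cdip1, a target of p53 (198 ± 53.7 and 196 ± 87.9), and Nsmce2, a SUMO ligase of the SMC5/6 complex (138 ± 38.8 and 144 ± 32.5). Fra10ac1 had 739 ± 296 and 726 ± 260. Fbl-ps2, a pseudogene of fibrillarin, had 173 ± 140 and 176 ± 164. It is uncertain, since the sources used here do not say how reads that match both a pseudogene and its parent were placed.

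The stable peaks of highest count included several mRNAs of general cell machinery. A scaled count is per peak and not per base, so that these values compare stages and not genes. Hnrnpab, an RNA-binding protein of ribonucleoprotein particles, had 10557, 7269 and 12793, then 6234, 12432 and 9910, then 11041, 7101 and 10003, then 8493, 12812 and 6399 from E11.5 to E17.5 in its 3' UTR (chromosome 11, 51600831 to 51601265). High and low libraries occurred at every stage. Nedd8, a ubiquitin-like protein that activates cullin ligases, had stage means of 6504 ± 2935, 6700 ± 2731, 6547 ± 1876 and 6817 ± 3168 in its 3' UTR (chromosome 14, 55662123 to 55662527). Calm3, which encodes calmodulin, had 7185 ± 1571, 7149 ± 2764, 7296 ± 3831 and 8204 ± 1647 (3' UTR). Pcbp1, a poly(C)-binding protein, had 4944 ± 1544 at E11.5 and 5893 ± 1642 at E17.5. Actr3, a subunit of the Arp2/3 complex that branches actin filaments, had 5050 ± 1970 and 4594 ± 2215 in its 3' UTR. Its coding peak was stable as well, at 907 ± 255 and 872 ± 241. Akr1a1, an aldehyde reductase, had 5094 ± 1507 and 5877 ± 1423. Atp5mpl, a small subunit of the ATP synthase, had 3289 ± 1036 and 3685 ± 1389. Ssb, the La protein that binds the ends of RNA polymerase III transcripts, had 3249 ± 183 and 3385 ± 892. Btf3-ps1 (9176 ± 3120 and 8070 ± 1327) and Smarce1-ps1 (3327 ± 646 and 3231 ± 995) are pseudogenes and as uncertain as Fbl-ps2. The Btf3-ps1 peak also lies within Pam on the same strand.

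**Figure D1:**
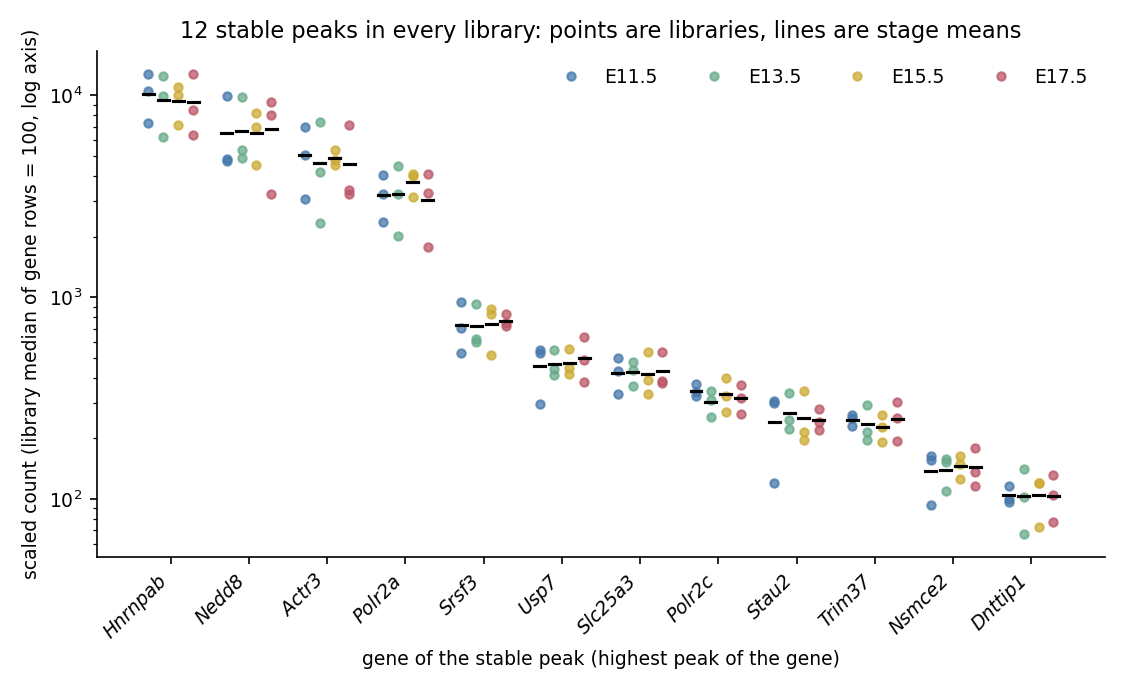
Scaled count (log axis, the median gene row of each library is 100) of 12 stable peaks, with 3 points a stage for the libraries and a line for each stage mean. The lines of 1 gene lie level, such as 104 at all 4 stages for Dnttip1, while the points around them spread, from 6234 to 12812 for Hnrnpab.

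Flatness of the mean was not flatness of single libraries. The highest of the 12 scaled counts was at the median 2.49 times the lowest (quartiles 2.13 and 3.09) among the stable peaks, against 4.14 times among the rows at the floor. The rule limited the stage means of these same counts, so the smaller span follows from the choice and is not a separate trait. Only 78 of the 447 stable peaks (17.4%) kept all 12 libraries within 2-fold, and 324 (72.5%) within 3-fold. The tightest was Tmem38a, an ion channel of internal membranes, with a span of 1.49. The widest was Ikbkb, a kinase of the NF-kappaB pathway, with a span of 15.47 and a scaled count of 10.3 in E11.5 replicate 2 from 3 reads. Within a stage the libraries varied as much for stable peaks as for others: the coefficient of variation averaged over stages had a median of 28.9% for the stable peaks and 29.3% for the rows at the floor. By stage the medians for the stable peaks were 29.3%, then 26.4%, then 29.0%, then 25.6% from E11.5 to E17.5. A library fell under 10 reads in 19 of the stable peaks.

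A model across all features gave the precision of the change of each stable peak. edgeR's quasi-likelihood F test over the 4 stages called 6577 of the 14101 features tested at a Benjamini-Hochberg adjusted p under 0.05, which is 46.6%, and 0 of the 447 stable peaks, all of which were among the features tested. At E17.5 against E11.5 it called 7321, or 51.9%, and again 0 stable peaks. No stable peak had an unadjusted p under 0.05 in either edgeR test, and DESeq2 called 0 stable peaks in both. The rule used the same counts, so nothing is read from these zeros. The log2 change of the stable peaks from E11.5 to E17.5 ran from -0.25 to 0.41 with a median of 0.07, and its standard error had a median of 0.39. The 95% interval of the change stayed within 2-fold for 278 of the 447 (62.2%) and within 1.5-fold for 0. For Dnttip1 the interval was -0.71 to 0.85 and for Hnrnpab -0.85 to 0.70. On simulated counts of 14045 features, with 50 changed at each size, the same test found 6% of true 2-fold changes between E17.5 and E11.5. It found 36% of 3-fold and 78% of 4-fold changes. Far fewer features changed there than the 51.9% called here, which makes the adjusted cutoff stricter. These shares therefore do not give the sensitivity of the real fit.

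The choice of scale was part of the definition, and it moved the stable peaks as a group. Their median raw count was 50 to 63 in the E11.5 libraries, then 135 to 154, then 140 to 179 and then 111 to 131 in the later stages. The total over the gene rows differed by less, at 5370226 to 5616147 reads in the E11.5 libraries, then 6000348 to 6328346, then 5838544 to 6372132, then 4685708 to 5181736 in the later stages. The share of gene-row counts in the stable peaks was 1.03% to 1.29%, then 2.52% to 2.83%, then 2.86% to 3.29%, then 2.55% to 2.90% from E11.5 to E17.5. The E11.5 libraries did not overlap the others in either measure. The median gene row moved in the same way, from 29 to 37 reads at E11.5 to between 64 and 103 later, so that after median scaling the stable peaks stood at one level in every library. When libraries were scaled by the total of the gene rows instead, 83 peaks met the rule and 0 of them were among the 447. With that scale the F test called 399 of the 447, and E17.5 against E11.5 called 433. A stable peak here is one that kept its place relative to the median peak, and not one that kept its share of the reads.

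**Figure D2:**
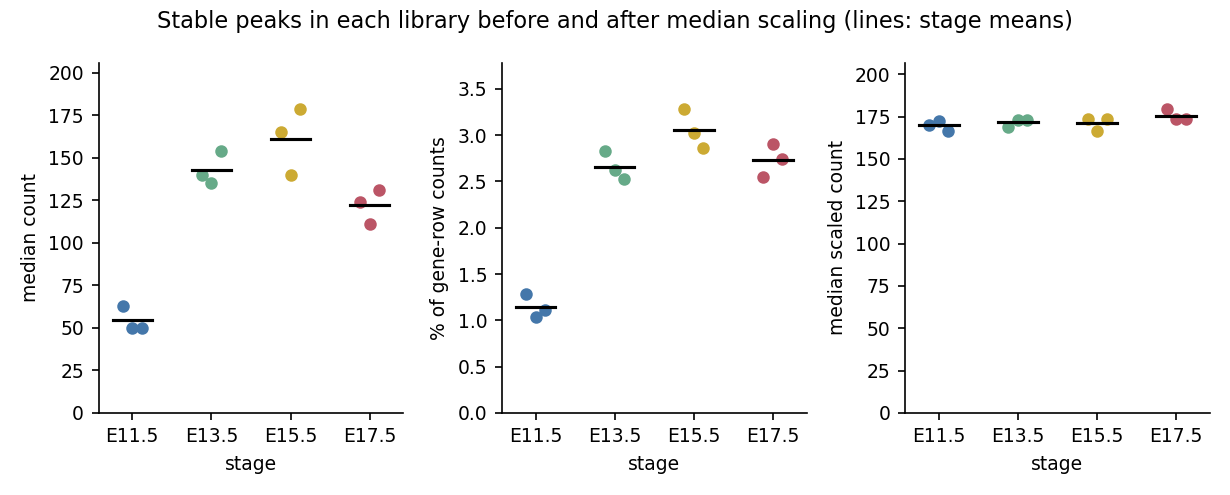
Median raw count of the stable peaks, their share of the counts in gene rows (percent) and their median scaled count, with 1 point a library by stage and a line for each mean. The 3 E11.5 libraries lie lowest in the first panels (50 to 63 reads and 1.03% to 1.29%), and all 12 lie level after median scaling.

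The stable peaks were the low end of a continuous distribution and not a separate class. Of the 8716 rows at the floor, 1380 (15.8%) had a ratio of stage means above 1.25 and up to 1.5, 2415 (27.7%) up to 2, 3205 (36.8%) up to 4 and 1269 (14.6%) over 4. Just inside the limit lay peaks of Sik3, a kinase related to AMPK (ratio 1.2497), Srrm1, a splicing coactivator (1.24969), and Ids, a lysosomal sulfatase (1.24969). Just outside lay Setd1b, a histone methyltransferase (1.2502), Cdkl3, a kinase (1.25039), and B4galt5, a galactosyltransferase (1.25127). At the floor, Fdx1 (lowest stage mean 45.2) and Usp34 (45.3) were kept, and Afdn (44.99), Pold1 (44.9) and Tubgcp5 (44.8) were not. Among the stable peaks the highest stage was the first for 116, the second for 109, the third for 108 and the last for 114. Among all rows at the floor the highest stage was E11.5 for 3200 and E17.5 for 3139, and one of the middle stages for the rest.

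**Figure D3:**
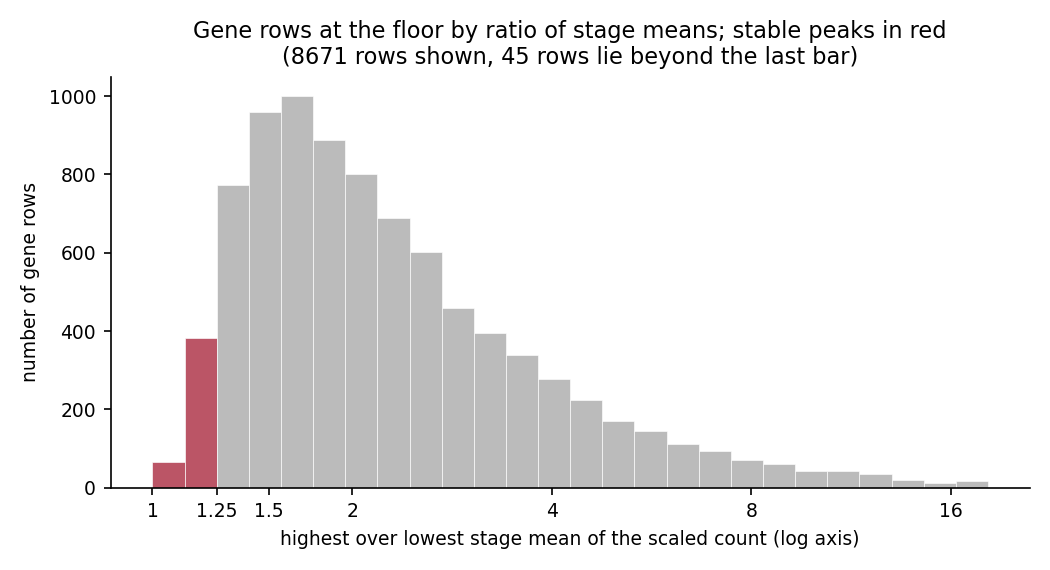
Number of gene rows at the floor by the ratio of highest to lowest stage mean (log axis), with the 447 stable peaks in red. The counts climb smoothly across the limit of 1.25, and 45 rows lie beyond the last bar.

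Leaving out a library changed which peaks were called stable. Without any 1 of the 12 libraries, between 366 and 476 peaks met the rule, and between 262 and 317 of them were among the 447. With the median of the 3 libraries in place of their mean, 349 peaks met the rule, and 160 of them (35.8% of the 447) were among the 447. In all 12 of these sets, 15 peaks remained, and they also met the rule with TMM scaling and with DESeq2 size factors. The 15 were singled out after these values were seen. They lay in Srsf3, Usp7, Slc25a3, Zfand5, Polr2c, Trim37, Manbal, Nsmce2, Zfp827, Gdap2, Sik3, Gm50388, Nf1, Dnttip1 and Ankhd1. Srsf3, a splicing factor of the serine- and arginine-rich family, had 527, 952 and 703, then 604, 621 and 928, then 825, 877 and 518, then 749, 825 and 718 from E11.5 to E17.5. Its peak (chromosome 17, 29039637 to 29039971) lies in an exon of a noncoding Srsf3 transcript in GENCODE, and the table calls it 3' UTR. Usp7, a deubiquitinase, had 458 ± 140, 468 ± 72.7, 473 ± 74.1 and 503 ± 128. Polr2c, a subunit of RNA polymerase II, had 344 ± 23.5, 303 ± 44.6, 331 ± 63.7 and 316 ± 51.3. Trim37, a ubiquitin ligase, had 248 ± 16.4, 235 ± 51.1, 227 ± 33.7 and 250 ± 55.5. Nf1, which restrains RAS signalling, had 115 ± 30.5, 102 ± 19.0, 102 ± 5.14 and 102 ± 13.09.

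Splicing, zinc finger, chromatin and mitochondrial genes held the most stable peaks among the lists. The counts below set the stable peaks of a list against that list's rows at the floor, beside 5.13% over all rows, with no test of the difference, and 134 of the 447 peaks lay in at least 1 of the 23 lists. Of 171 rows of splicing factors and hnRNPs, 16 (9.36%) were stable. Beside Hnrnpab they held Hnrnpd, which binds AU-rich elements (2730 ± 1681 at E11.5 and 2347 ± 490 at E17.5), Prpf38b (1791 ± 24.8 and 2112 ± 845), Srrm2, a scaffold of nuclear speckles, with 2 peaks, and Sf3b4, a subunit of the U2 particle (280 ± 71.1 and 241 ± 71.0). Of 175 rows of zinc finger proteins, 18 (10.3%) were stable, among them Zfp362 (889 ± 354 and 881 ± 99.4), Zfp609 (584 ± 233 and 589 ± 50.7) and Zfp768 (256 ± 35.7 and 263 ± 50.4). Of 264 rows of chromatin modifiers, 20 (7.58%) were stable. The pseudogene Smarce1-ps1, uncertain as above, is among them. They included 3 peaks of Brd3, a reader of acetylated histones (1236 ± 307 and 1253 ± 500 in the highest), the acetyltransferases Ep300 and Crebbp, and Ezh2, the methyltransferase of Polycomb (391 ± 112 and 313 ± 60.5). Of 151 rows of mitochondrial respiration and the mitochondrial ribosome, 13 (8.61%) were stable, such as Cox6c (2089 ± 373 and 1938 ± 202) and Cox5b (1268 ± 535 and 1080 ± 255), both subunits of cytochrome oxidase, and the pseudogene Ndufs5-ps, which is uncertain.

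Protein turnover and traffic gave smaller sets. Of 179 rows of ubiquitin ligases and conjugating enzymes, 12 (6.70%) were stable, with Rnf10 at 675 ± 50.3 and 582 ± 81.0, Fbxw2 at 630 ± 183 and 534 ± 322, and Rnf166 at 314 ± 121 and 387 ± 160 (E11.5 and E17.5). Of 48 rows of deubiquitinases, 4 (8.33%) were stable, in Usp7, Usp34, Usp49 and Usp50. The Usp50 peak is intronic, overlaps Usp8 on the opposite strand and varied widely between libraries (67.3 ± 44.2 at E11.5 and 70.9 ± 65.2 at E17.5). The Usp49 peak overlaps Tomm6 and Gm21981 on the opposite strand. The search by name caught 12 stable peaks among 186 rows (6.45%) of vesicle coats, Rab proteins and trafficking. They include Trappc6b, a tether of vesicles (1226 ± 86.3 and 1213 ± 726), and Arf3, a small GTPase of the Golgi (178 ± 49.7 and 217 ± 37.8), and 2 that do not belong by function, the antisense gene Rab10os and the chromatin subunit Vps72. Nuclear transport had 4 of 47 (8.51%), chaperones 4 of 54 (7.41%), translation factors 4 of 58 (6.90%) and the proteasome list 3 of 52 (5.77%), one of them the pseudogene Psmb6-ps2. Phosphatase subunits had 3 of 60, solute carriers 4 of 88 (4.55%), Mediator and RNA polymerase II 5 of 114 (4.39%) and RNA helicases 2 of 48 (4.17%), all under the share over all rows. Eif1, an initiation factor that checks the start codon, had 1950 ± 416 and 1635 ± 198 in its 5' UTR. Of the 9 reference genes often used to normalise expression, Polr2a (3230 ± 846 and 3050 ± 1184) and Hprt (239 ± 82.4 and 237 ± 60.3) had a stable peak, 2 of 12 rows (16.7%). Of the same 12 rows, 4 (33.3%) were called over the 4 stages by edgeR. With so few rows, nothing is read from the high share.

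The lists of pan-neuronal, radial glia, cytoskeleton and ribosomal protein genes had no stable peak. None of the 25 rows of pan-neuronal genes, 16 of radial glia and neuroepithelium, 59 of actin and microtubule genes and 43 of ribosomal proteins at the floor was stable. The share over all rows was 5.13%, which gives only a few stable rows in lists of this size. The zeros therefore do not show a lack, and the difference was not tested. The cytoskeleton list holds 36 genes and not all of its kind: Actr3, described above, and the microtubule-binding proteins Clip1 and Camsap1 are outside it and had stable peaks. Replication and mitosis had 1 of 37, in Ncapd2, and motor proteins 2 of 54. Over all rows at the floor 39.1% were called over the 4 stages by edgeR, against 100% of the radial glia rows, 84.0% of the pan-neuronal rows, 75.7% of the replication rows, 65.1% of the ribosomal protein rows, 21.1% of the zinc finger rows, 19.9% of the mitochondrial rows and 17.54% of the splicing rows. Of 38 markers of cortical and other cell types, 27 had a gene row, with 24 rows at the floor and 0 stable, again few rows for a share of 5.13%. Neurod6, a factor of excitatory neurons, went from 170 ± 57.7 to 6680 ± 1358 between E11.5 and E17.5 (edgeR F test over the 4 stages, adjusted p = 1.64e-08). Hmga2, a factor of early progenitors, went from 11698 ± 2894 to 3.12 ± 5.41 (same test, adjusted p = 1.08e-11). Markers of connective tissue moved with the stages as well: Col1a1 summed over its rows stood at 484 at E11.5 and 11.52 at E17.5. The part of such cells in the stable counts was not tested.

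**Figure D4:**
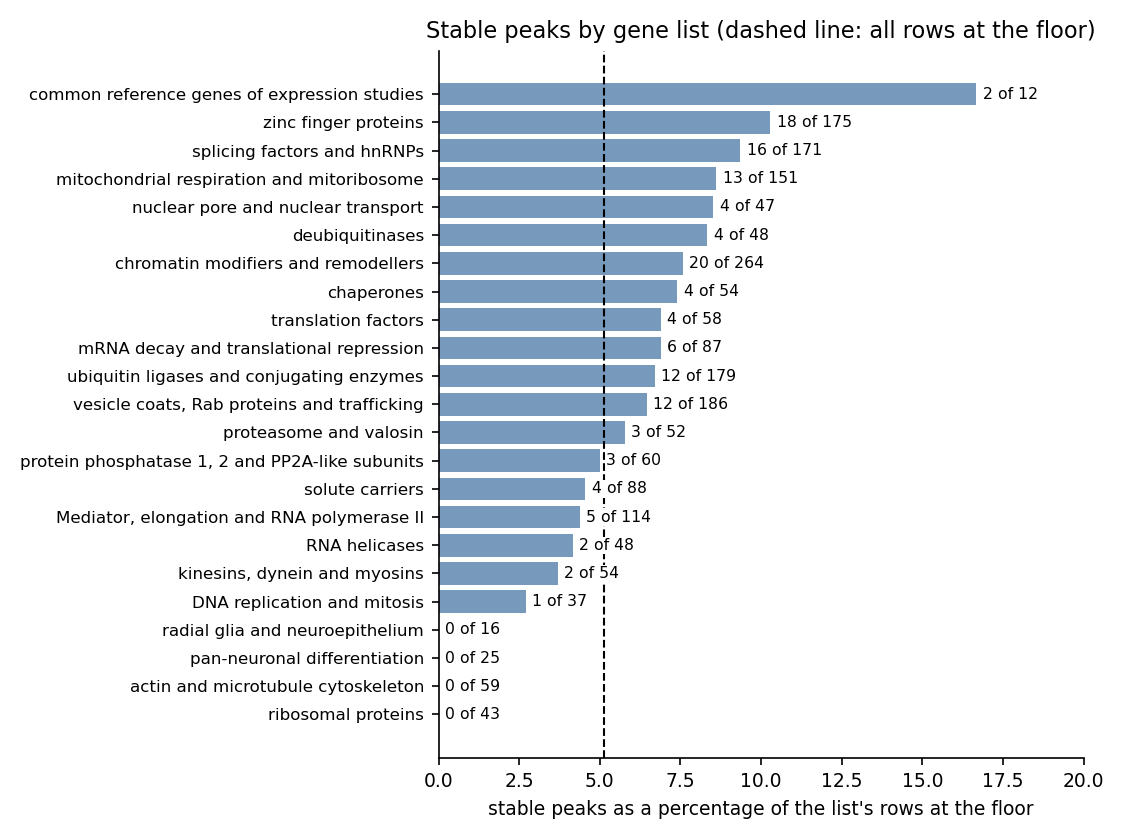
Stable peaks as a percentage of the rows at the floor for each of 23 gene lists, with the counts beside the bars and a dashed line at 5.13% for all rows. Reference genes lie highest (16.7%, 2 of 12 rows), on too few rows to read a difference. Zinc finger, splicing and mitochondrial lists lie above the line at 8.61% to 10.3%. Nuclear transport (8.51%), deubiquitinases (8.33%) and several other lists lie above it too, and 4 lists have no stable peak.

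The genes of the Staufen proteins had a stable peak each. Stau2 had 6 peaks. The stable one lies in its coding sequence by GENCODE, in an exon that the table calls 3' UTR (chromosome 1, 16389683 to 16389993, minus strand), and holds the hairpin printed above. Its scaled counts were 300, 307 and 120, then 222, 336 and 247, then 197, 215 and 344, then 280, 241 and 220 from E11.5 to E17.5. The lowest library was E11.5 replicate 3, with 36 reads, and the stages overlapped. The peak of Stau2 in its most distal 3' UTR (16229183 to 16229636) held 45.9, 86.2 and 76.7, then 142, 113 and 93.3, then 139, 145 and 110, then 265, 334 and 185 from E11.5 to E17.5. It rose, with all 3 E17.5 libraries above all others. Its log2 change from E11.5 was 1.99 with a standard error of 0.38 (edgeR F test over the 4 stages, adjusted p = 0.000809). An antisense gene, Gm28095, overlaps that peak. The other 4 peaks of Stau2 had ratios of 1.40 to 1.86 and did not pass. Stau1, the related protein found in most tissues, had a stable peak in its 5' UTR, at 97.9 ± 35.8, 121 ± 26.9, 114 ± 48.2 and 98.3 ± 27.8. Its 3' UTR peak had 237 ± 60.6 at E11.5 and 366 ± 171 at E17.5 without passing. The list named for mRNA decay and translational repression also held Cnot2 and Cnot8, both of the CCR4-NOT deadenylase, Edc3, which promotes decapping, and Larp4b. With Stau1 and Stau2, 6 of its 87 rows (6.90%) were stable. A place in the list does not show that a gene acts in decay or repression.

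Peaks of one gene did not all keep level. Of the 394 genes, 348 had 1 stable peak, 41 had 2, 3 had 3 (Brd3, Zfp609 and Prpf3) and 2 had 4 (Fchsd2 and Cdk11b). The 4 stable peaks of Fchsd2, a membrane-bending protein, all lay in coding exons, with E11.5 and E17.5 means of 92.3 ± 33.9 and 86.3 ± 22.3, 139 ± 32.0 and 167 ± 31.3, 328 ± 69.2 and 349 ± 68.1, and 157 ± 73.7 and 170 ± 62.8. The Cdk11b peaks overlap Gm10563 on the other strand, and their stage means ran from 72.0 to 136. For 122 genes the stable peak was their only row. The genes with a stable peak had 482 further rows at the floor that were not stable, with a median ratio of stage means of 1.57, against 2.10 over all rows at the floor that were not stable. Of these 482 rows, 80.9% had a ratio of at most 2 (45.9% of all such rows), and 46 (9.54%) were called over the 4 stages (41.2%). Peaks of 1 gene share its RNA, so that these rows are not independent of the ones that were chosen.

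A few genes held a stable peak beside one that changed strongly. Serf2, a small protein linked to aggregation, had a 3' UTR peak at 1221 ± 622, 1237 ± 283, 1094 ± 123 and 1102 ± 345, which also overlaps Hypk on the same strand. Its 5' UTR peak fell from 4714, 2617 and 3353 at E11.5 to 606, 338 and 374 at E17.5. The edgeR F test over the 4 stages, used for every adjusted p in this paragraph, gave 3.04e-05. That falling peak overlaps Serinc4 on the opposite strand. Ncapd2, a condensin subunit, had a stable coding peak at 184 ± 57.2 and 218 ± 25.9, and another that rose from 114 ± 55.6 to 1646 ± 331 (adjusted p = 4.12e-06). That second peak overlaps Scarna10, a small RNA gene within Ncapd2 on the same strand, so that its reads cannot be assigned to Ncapd2 alone. Dlgap4, a scaffold of the postsynapse, had a stable 5' UTR peak at 182 ± 66.4 and 203 ± 98.6. Its coding peak further upstream in the genome held 0, 6 and 0 reads at E11.5 and 88, 61 and 97 at E17.5, and rose (adjusted p = 5.06e-05). Crebbp had a stable coding peak at 82.8 ± 21.7 and 94.5 ± 4.76 and an intronic one that fell from 79.8 ± 30.9 to 3.93 ± 2.01 (adjusted p = 8.18e-06). Tiam1, an activator of the GTPase RAC, had a stable 3' UTR peak at 83.6 ± 54.5 and 79.5 ± 32.4 and an intronic one that fell from 66.7 ± 38.7 to 6.14 ± 1.66 (adjusted p = 0.00104). Both peaks of Galnt2l were intronic. The stable one had 87.9 ± 69.0 and 107 ± 34.9, and the other rose from 8.05 ± 13.9 to 51.7 ± 51.4 (adjusted p = 0.0298), with 71 of its 103 E17.5 reads in replicate 2. That rising peak overlaps Zcchc14 on the opposite strand.

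**Figure D5:**
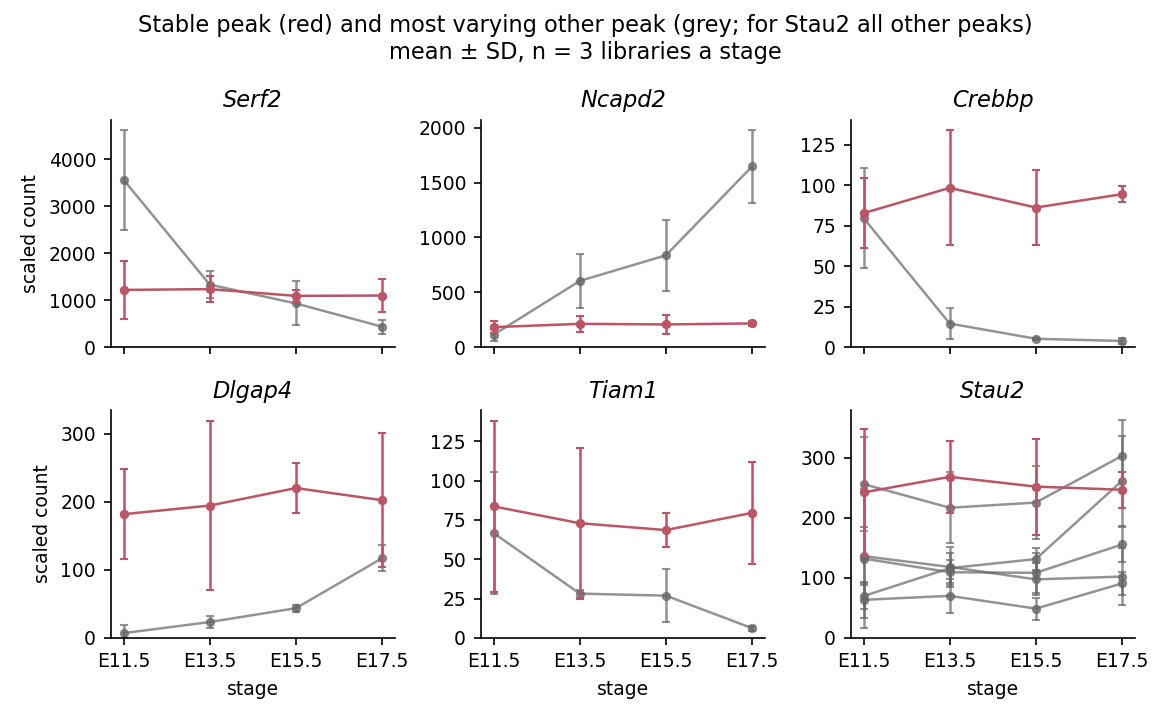
Scaled count by stage (mean ± SD, n = 3) of the stable peak in red and the most varying other peak in grey for 5 genes, and of all 6 peaks for Stau2. The red lines stay level, as the rule requires. In the 5 genes the grey ones move, as for Serf2 from 3561 to 439 and for Ncapd2 from 114 to 1646. For Stau2 the most distal 3' UTR peak rises, and the other grey peaks had ratios of only 1.40 to 1.86.

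By position the stable peaks were spread over the whole transcript. The table placed 212 of the 447 in 3' UTRs (47.4%, Wilson 95% interval 42.8% to 52.1%), 194 in exons (43.4%), 37 in 5' UTRs (8.28%) and 4 in introns (0.895%). Among the rows at the floor the shares were 50.9%, 40.3%, 7.40% and 1.40%. GENCODE gave another picture, with 155 in 3' UTRs (34.7%) and 240 in coding sequence (53.7%, interval 49.1% to 58.3%), since 55 peaks that the table calls 3' UTR lie in coding sequence there. By GENCODE, coding sequence held 48.6% of the rows at the floor and 41.1% of those with a ratio over 4 (interval 38.5% to 43.9%). Peaks of 1 gene are not independent, so that these intervals are too narrow. Of the stable peaks 428 (95.7%) lay in protein-coding genes, 12 in pseudogenes and 5 in antisense genes. Another gene overlapped on the same strand for 18 and on the opposite strand for 53 (11.9%, against 12.2% of the rows at the floor). The latter include the peaks of Dnttip1 (Gm11457), Hnrnpab (Phykpl), Cdip1 (Hmox2) and Polr2c (Dok4). The sources used here do not say whether the counting used the strand.

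In sequence and predicted fold the stable peaks had the values of the rows at the floor. Their median width was 366 bases against 356, their median GC content 50% against 49.5%, and their median folding energy over 200 bases -50.2 kcal/mol in both. The longest predicted helix had a median of 8 base pairs in both. The median score that the authors' peak table gives was 42.4 for the stable peaks and 44.9 for the rows at the floor. The mean scaled count over the 4 stages had a median of 178 for the stable peaks and 198 for the rows at the floor, and 366 for the rows with a ratio over 4. Unlike the sequence values, these means come from the counts that the rule used. Above the floor, a high ratio itself raises the mean, so nothing is read from the difference.

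Short motifs were counted in the stable peaks and in the other rows, with no test of the difference. The motifs were searched on the RNA strand of the 200-base windows only. ATTTA, the core of AU-rich elements, was in 69 of 439 (15.7%, against 16.5% of the windows of rows at the floor and 15.8% of those of all gene rows). TGTANATA, the site of Pumilio proteins, was in 7 (1.59%, against 2.50% and 2.29%). CTACCTC, the match to the let-7 seed, was in 7 (1.59%, against 1.76% and 1.83%), ACCAAAG, the match to the miR-9 seed, in 7 (1.59%, against 2.22% and 2.24%), and GTGCCTT, the match to the miR-124 seed, in 9 (2.05%, against 1.80% and 1.87%). AATAAA, the polyadenylation signal, was in 42 (9.57%, against 10.9% and 10.7%). TTTTTT, a run of U in the RNA, was in 32 (7.29%, against 9.78% and 8.95%). A match is only a run of letters and does not show a site in use. The mature miRNAs are printed with bases 2 to 8, the seed, in capitals, from RefSeq on GRCm38.p6, and below them stretches of stable peaks with the motif in capitals, each a member whose counts are given beside it.
mmu-let-7a-5p: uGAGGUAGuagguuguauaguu
mmu-miR-9-5p: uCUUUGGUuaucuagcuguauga
Nsmce2 3' UTR, chr15:59601481-59601510, plus strand: atgtcagcagcCTACCTCcccgccagccac
Dcakd 3' UTR, chr11:102994294-102994323, minus strand: cccaagctctcCTACCTCtgtgccttcccc
Zfp609 coding sequence, chr9:65703323-65703352, minus strand: ctcagagtcccACCAAAGccggttagctag
Fam98b 3' UTR, chr2:117271231-117271260, plus strand: atttttagaaaTGTAAATAtttattaccag
Tiam1 3' UTR, chr16:89787234-89787263, minus strand: ccattgtctctTGTATATAcggtcatgatg
Nsmce2 had stage means of 138 ± 38.8, 140 ± 26.2, 146 ± 19.6 and 144 ± 32.5. Dcakd had 3069 ± 804, 3076 ± 78.8, 3599 ± 1192 and 3244 ± 1215. Its window also held the miR-124 seed match, next to the let-7 match. Fam98b, a subunit of the tRNA ligase complex, had 725 ± 198, 732 ± 80.0, 700 ± 219 and 779 ± 5.29.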

How the data were processed

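Counts per merged peak, gene and library were deposited as 1 table of whole-number counts with a peak score, per the file headers. HOMER 4.10 and the genome build mm10 (GRCm38) stand in the submitters' processing notes. The sources used here do not give the aligner, the strand setting or the placing of reads with several matches. The authors deposited 18975 rows for 13879 merged peaks. From these, 4513 intergenic rows and 170 rows without a symbol were left out. The peak score was only described.

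Stable peaks follow the rule in the report. Changes were fitted to the counts of all 12 libraries in 1 edgeR 4.0.16 quasi-likelihood model (R 4.3.3) with TMM scaling, filterByExpr and Benjamini-Hochberg adjustment. It was tested on simulated data. DESeq2 1.42.0 was an alternative. Other alternatives were the scaling, the limits of the rule, the filter on low counts, a replicate block and each library left out. Intervals of log2 changes come from the standard error of that model. Counts over all peaks were 12472784 to 14044464 a library, and precision is limited by 3 libraries a stage. For these totals the intergenic rows, whose counts were all even, were taken as doubled and halved. Each merged peak was then counted once per strand. The rows left out of the gene rows held 62.0% to 72.3% of the counts as deposited.

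Windows of 200 bases came from GENCODE M21 transcripts and were folded with ViennaRNA 2.7.2. Protein-coding transcripts were preferred, with an overlap of at least 30 exonic bases, a choice made after seeing the locations. The hairpins, the ratio classes and the span over single libraries were also added after seeing the data. The members and the gene lists were chosen with earlier results of these data known. Named genes are the 10 smallest ratios, the 10 highest means, those next to each limit, up to 3 a list by mean, the genes with most stable peaks, the 6 genes with the most varying other peak, and stage markers, with unnamed gene models (such as Gm50388) and repeats of a gene skipped. Others are described for the motif or hairpin they hold, the 15 kept peaks or the extremes of span. Some genes that this rule picks are not reported here.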

Additional observations from a re-analysis of the deposited data

How the results depend on the processing

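Of 113 alternative values over 15 results, 101 stayed within 1.5 times the value reported (counts) or within its spread. The 101 include counts of stable peaks called, which stayed at 0 because the rule chose these peaks on the same counts. The number of stable peaks was 447. It moved to 83 when libraries were scaled by the gene-row total and to 47 with the total over all peaks, to 128 and 968 with a ratio limit 0.1 lower and 0.1 higher, to 279 genes with counts summed per gene, and to 1779 with the libraries of E13.5, E15.5 and E17.5 only, an alternative added after seeing the data. Leaving out 1 library gave 366 to 476. The F test over 4 stages called 5695 to 6679 features without 1 library and 10294 with the gene-row total, where it called 399 stable peaks. At E17.5 against E11.5 the calls were 6295 to 7469 without 1 library. The gene-row total gave 7814 higher and 1301 lower calls, against 3646 and 3675, and 433 stable peaks. Stable peaks called without 1 library numbered 0 in the F test and 0 to 1 at E17.5 against E11.5, the 1 without E11.5 replicate 2. The share of stable peaks in 3' UTRs was 34.7% by GENCODE, against 47.4%. The folding energy from 100-base windows, doubled, was -43.0 kcal/mol, against -50.2. The cause of these moves was not tested, beyond the scale and limits that define the settings.

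The stages share replicate numbers, and the main fit did not pair libraries by number, since nothing says what the numbers stand for. Correlations of deviations from the stage mean were -0.18 to 0.52 for the same number (18 pairs, mean 0.12). For other numbers they were -0.44 to 0.49 (36 pairs, mean -0.06). Replicate 2 was the highest library at all 4 stages for the Nedd8 and Cdip1 peaks, but not for those of Dnttip1 or Hnrnpab. The printed SDs can thus hold a difference between replicate numbers, which was not tested. With a replicate block, 7241 features were called over the 4 stages (6577 without it), 7675 at E17.5 against E11.5, and 0 stable peaks in both.

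Low counts per peak limit the E11.5 values most, where the median stable peak had 50 to 63 reads. The gene-row totals at E11.5 lay above those at E17.5. Totals over all peaks at E11.5 were 12472784 to 12618226, against 13157361 to 14044464 at the other stages.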
